A study of Mus musculus with 4 samples.

Results

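Oncostatin M, interleukin 6 and interleukin 10 are secreted proteins that macrophages make and that macrophages, hepatocytes and other liver cells answer through receptors that activate the transcription factor STAT3. The 10 genes described here are the 3 ligand genes Osm, Il6 and Il10, the receptor genes Osmr, Il6ra, Il6st, Il10ra and Il10rb, and Stat3 and its feedback inhibitor Socs3. They were chosen by symbol among the 29247 Ensembl genes of the count table, and all 10 were found, each under a single gene identifier. All 10 also had enough reads to be tested.

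Messenger RNA was sequenced from flow-sorted liver macrophages of C57BL6J mice aged 8 weeks. In the APAP group, 3 libraries of Cxcr4+ macrophages come from mice killed 72 h after they received acetaminophen (APAP, 300 mg/kg in saline, into the peritoneum), a drug whose overdose kills hepatocytes. The control is 1 library of macrophages for which the labels name neither a gate nor an injection, so that the effects of APAP and of the Cxcr4 sort cannot be told apart. The labels do not tie the 3 APAP libraries to different mice, and a p-value here therefore reflects the spread of these 3 libraries alone, which could be purely technical.

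Both interleukin 6 and oncostatin M signal through the shared receptor chain gp130, the product of Il6st. Interleukin 6 first binds its own receptor chain, encoded by Il6ra, and oncostatin M binds a pair of gp130 and the chain encoded by Osmr. Interleukin 10 uses a separate receptor of a ligand-binding chain, Il10ra, and a chain shared with other cytokines, Il10rb. Either receptor system leads to phosphorylation of STAT3, which switches on Socs3, and the SOCS3 protein then blocks gp130 while leaving the interleukin 10 receptor largely untouched. In liver, interleukin 6 is known as the main inducer of acute-phase proteins in hepatocytes and interleukin 10 as a restraint on inflammatory macrophages.

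Total counts ran from 48282283 to 56702837 in the APAP libraries and stood at 49950909 in the control. At these similar totals, 23376, 23854 and 23880 genes had reads after APAP and only 18793 in the control. The part of this difference in low or absent control counts was not tested. Levels are given as CPM, the counts scaled to library size with edgeR's TMM factors, so that libraries can be compared. The factors were 1.041, 1.033 and 1.034 after APAP and 0.9 in the control. Cxcr4 itself, the sort marker, reached 84.5, 132 and 101 CPM after APAP against 41.3 CPM in the control, which checks the labels and is no finding. The defining macrophage genes were present in every library, with a summed level over 9 genes of 17140 to 20010 CPM after APAP and 19960 CPM in the control. The similar sums do not mean that each gene was equal. In the test described below, 4 of the 9 fell (Adgre1, Cd68, Fcgr1 and Cd14), 2 rose (Mertk and Ptprc) and 3 did not pass. Without the second APAP library 2 fell and 0 rose. Over 7 Kupffer cell genes, which mark the resident liver macrophages, the sum was 11010 to 14150 CPM against 29720 CPM in the control, and over 7 monocyte genes it was 643 to 812 CPM against 178 CPM. Most of that control sum was Plac8, named after its value was seen, at 147.6 CPM in the control and 39.4 to 51.0 CPM after APAP, and the other 6 monocyte genes summed to 30.8 CPM in the control and 603 to 773 CPM after APAP.

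The ligands moved in opposite directions. Osm was higher in APAP Cxcr4+ macrophages, and Il6 and Il10 were lower. In bulk samples such as these, fewer cells of a type and less RNA per cell cannot be told apart. Of the 10 genes, 3 rose (Osm, Il6st and Socs3), 3 fell (Il6, Il10 and Il10rb) and 4 did not pass the test (Osmr, Il6ra, Il10ra and Stat3), by edgeR's quasi-likelihood test at a Benjamini-Hochberg adjusted p of 0.05. That is 60.0% of the genes described, where 44.3% of all 18715 genes tested passed, 25.4% as higher and 18.9% as lower. The median size of the log2 fold change, without its sign, was 0.68 over the 10 genes and 0.66 over all genes. Without the second APAP library, only Osm rose and only Il6 fell, and the number of genes called over the whole table was 5001 in place of 8295.

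**Figure D1:**
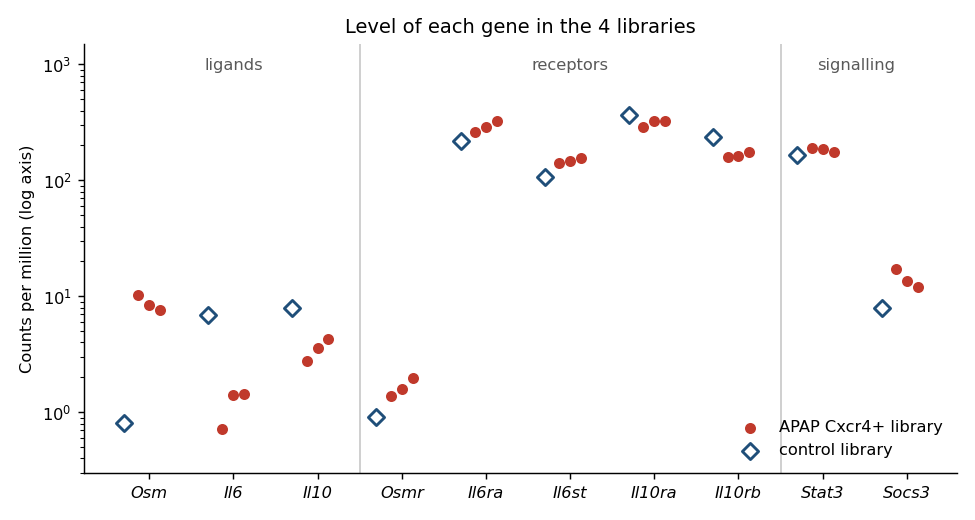
Level of the 10 genes in CPM, on a log axis; filled circles are the 3 APAP Cxcr4+ libraries and the open diamond is the single control library. Osm lies far above its control value in all 3 APAP libraries, at 7.61 to 10.3 against 0.801 CPM, while Il6 and Il10 lie below theirs.

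Oncostatin M, a cytokine of activated macrophages and neutrophils, had 519, 449 and 446 reads after APAP and 36 in the control. In CPM, Osm stood at 10.3, 8.36 and 7.61 against 0.801 in the control, whose exact Poisson 95% interval of 0.561 to 1.11 covers counting error only. All 3 APAP libraries were thus well above anything that counting error allows for the control. The mean of 8.77 ± 1.40 CPM (SD, n = 3) was 10.9 times the control value. The fitted log2 fold change was 3.45 (SE 0.30, edgeR adjusted p = 0.00127).

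Interleukin 6, the founding gp130 ligand, went the other way, with 36, 76 and 84 reads after APAP and 312 in the control. In CPM, Il6 stood at 0.716, 1.42 and 1.43 against 6.94. The groups did not overlap, although the first APAP library was well below the other two. The mean of 1.19 ± 0.41 CPM (SD, n = 3) made the control 5.84 times higher. Il6 had the largest spread of the 10 genes among the APAP libraries, with a coefficient of variation of 34.4%, and its log2 fold change was -2.54 (SE 0.37, edgeR adjusted p = 0.00442).

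Interleukin 10, which restrains cytokine production by macrophages, had 140, 194 and 249 reads after APAP and 355 in the control. Il10 levels of 2.79, 3.61 and 4.25 CPM lay below the control value of 7.90 CPM. Their mean was 3.55 ± 0.73 CPM (SD, n = 3), so that the control was 2.23 times higher. The log2 fold change was -1.15 (SE 0.26, edgeR adjusted p = 0.0166), and the call was lost without the second APAP library (adjusted p = 0.0584 at an almost equal log2 fold change of -1.16).

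The make-up of the ligand reads does not depend on how libraries are scaled. Of the reads of Osm, Il6 and Il10 together, Osm took 36 of 703 (5.12%, Wilson 95% interval 3.72% to 7.01%) in the control. After APAP it took 74.7% (71.3% to 77.8%), 62.4% (58.9% to 65.9%) and 57.3% (53.8% to 60.7%). Osm was therefore the rarest of the 3 in the control and the most read in each APAP library. The total was 695, 719 and 779 reads after APAP and 703 in the control. Unlike the shares, this total depends on library size. Scaled, the sum of the 3 ligands was 13.8, 13.4 and 13.3 CPM after APAP and 15.6 CPM in the control. Il6 fell from 44.4% to between 5.18% and 10.8% of these reads and Il10 from 50.5% to between 20.1% and 32.0%. Intervals here cover counting error only, since reads without molecular identifiers are not independent molecules.

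**Figure D2:**
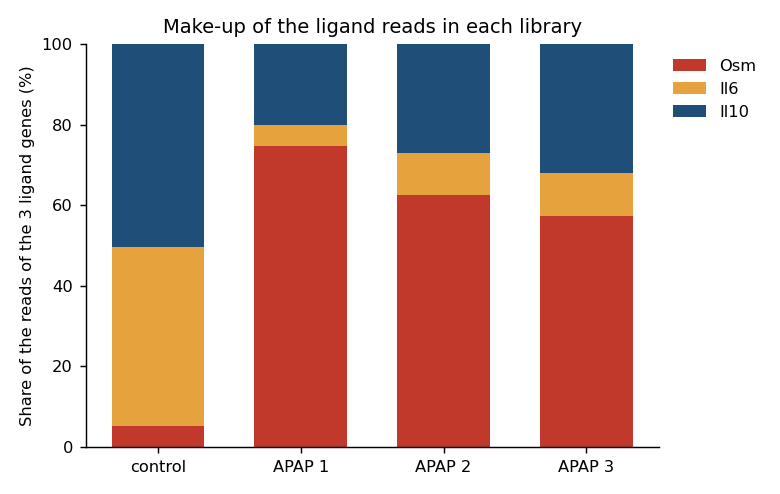
Share of the reads of Osm, Il6 and Il10 that falls to each gene, in percent, with 1 stacked bar for each library. Osm fills 5.12% of the control bar and 57.3% to 74.7% of the 3 APAP bars.

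Levels of different genes can be compared only per length, for which CPM was divided by the exon length of each gene in kilobases. On that scale, the order in the control was Il10 (6.03 CPM per kb), Il6 (2.86) and Osm (0.353). In the APAP libraries Osm came first with 4.55, 3.68 and 3.35 CPM per kb, Il10 second with 2.13, 2.76 and 3.24, and Il6 last with 0.295, 0.583 and 0.590. The first 2 places were not apart in the third APAP library, where the ratio of Osm to Il10 per kb was 1.03 with a counting interval of 0.884 to 1.21. The corresponding ratio was 2.14 and 1.33 in the other APAP libraries and 0.0585 in the control. Even the leading ligand was a gene of middling level, at the 55.8 to 61.4 percentile of tested genes per kb after APAP.

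A feature that the 3 ligand genes share is an AU-rich element in the 3′ untranslated region of the mRNA, the kind of site through which short-lived cytokine messages are degraded. The heptamer TATTTAT, the core that the decay factor tristetraprolin binds, was counted on the sense strand in 1 GENCODE transcript per gene, with overlapping matches allowed. It was found 3 times in Osm, 1 time in Il6 and 4 times in Il10, and also 3 times in Il10ra and 2 times in Socs3. It was not found in Osmr, Il6ra, Il6st, Il10rb and Stat3. Over all 20642 genes with such a region, 25.5% held at least 1 match, 3.57% held 3 or more and 1.48% held 4 or more. The densest 30 bases of the ligands and of Socs3 are shown to let the sites be compared, 5′ to 3′ with the heptamer in capitals.
Osm: ttttaTATTTATaaggccTATTTATaatgt
Il6: atttatgattgaTATTTATtatttttatga
Il10: ctctctccgaaaTATTTATtacctctgata
Socs3: ttgcacataTATTTATATTTATactcagaa
The genes that carry the heptamer include 2 that rose, 2 that fell and 1 that did not pass the test, so the match did not go with one direction.

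The start region of Il6 is a textbook cytokine promoter and is shown because it belongs to the ligand that fell most. RefSeq's promoter table (GRCm38.p6) held 6 of the 10 genes, namely Il6, Osmr, Il6ra, Il6st, Stat3 and Socs3. The 300 bases around each start were searched on both strands for the STAT motif TTCNNNGAA, the AP-1 motifs TGAGTCA and TGACTCA, the C/EBP motif TTNNGCAA and the NF-kB consensus. Il6 matched AP-1 at position -249, C/EBP at -128 and NF-kB at -44 relative to the start, and Socs3 matched the STAT motif at -154. The other 4 genes matched none of them in this window. Of all 32851 promoters of this length in the table, 8.30% matched the STAT motif, 5.20% AP-1, 10.8% C/EBP and 8.46% NF-kB. A match is a description of letters and not a measured binding site. The 250 bases before the start are shown 5′ to 3′ on the strand of the gene, with matches in capitals, for Il6 (chr5:30012864-30013113, plus strand) and for Socs3 (chr11:117969367-117969616, minus strand).
Il6: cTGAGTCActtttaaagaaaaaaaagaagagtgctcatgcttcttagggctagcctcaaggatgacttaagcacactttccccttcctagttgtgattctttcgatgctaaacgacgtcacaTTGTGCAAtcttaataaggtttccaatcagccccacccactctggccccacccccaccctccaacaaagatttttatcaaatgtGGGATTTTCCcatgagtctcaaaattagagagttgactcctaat
Socs3: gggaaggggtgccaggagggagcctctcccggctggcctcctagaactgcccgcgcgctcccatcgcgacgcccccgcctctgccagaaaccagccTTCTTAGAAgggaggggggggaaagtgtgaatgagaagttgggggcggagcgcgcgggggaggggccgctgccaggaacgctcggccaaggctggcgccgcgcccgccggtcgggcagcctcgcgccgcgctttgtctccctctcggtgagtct

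The order of the receptor genes by level per length was the same in all 4 libraries. Il10ra came first (105 CPM per kb in the control and 82.9 to 93.6 after APAP), then Il10rb (62.5, and 42.0 to 46.1), Il6ra (25.2, and 30.3 to 37.7), Il6st (9.57, and 12.8 to 14.1) and Osmr (0.0753, and 0.115 to 0.163). Osmr, the chain specific to oncostatin M, was the rarest of the 10 genes per kb in all 4 libraries, with Il6st 127 times higher per kb in the control and 111, 100 and 86.2 times higher after APAP. In each of these bulk libraries the transcript of the shared chain was thus far above that of the chain that pairs with it for oncostatin M.

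Il6st, which encodes gp130, stood at 142, 145 and 156 CPM after APAP and 106 CPM in the control. All 3 APAP libraries were higher and close to each other. Their mean of 148 ± 7.4 CPM (SD, n = 3) was 1.39 times the control (log2 fold change 0.48, SE 0.10, edgeR adjusted p = 0.0126). Without the second APAP library the adjusted p was 0.0613 at a log2 fold change of 0.49.

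Il6ra, the interleukin 6 receptor chain, stood at 262, 290 and 326 CPM after APAP and 218 CPM in the control. Again the groups did not overlap, but the APAP libraries were spread more widely. The log2 fold change of 0.42 (SE 0.14, 95% interval for the fold 1.05 to 1.71, not adjusted) missed the threshold at an edgeR adjusted p of 0.0555. It passed in 4 alternatives, at adjusted p = 0.00465 without the first APAP library, 0.0229 with the DESeq2 Wald test, 0.0339 with no filter on low counts and 0.0163 with raw library totals. The ratio of Il6ra to Il6st reads, which needs no scaling, was 1.84, 1.99 and 2.09 after APAP and 2.05 in the control, which lay inside the APAP range.

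Osmr had 70, 85 and 116 reads after APAP and 41 in the control. Its levels of 1.39, 1.58 and 1.98 CPM lay above the control value of 0.912 CPM, whose exact Poisson interval of 0.655 to 1.24 CPM ended below the lowest of them. With a log2 fold change of 0.86 (SE 0.36), Osmr did not pass the test (edgeR adjusted p = 0.0986), and the 95% interval for the fold, 0.984 to 3.33, leaves room for no change and for a rise of 3 times.

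For interleukin 10 the ligand-binding chain Il10ra stood at 290, 326 and 327 CPM after APAP and 368 CPM in the control. The difference was small (log2 fold change -0.23, SE 0.11) and did not pass the test (edgeR adjusted p = 0.138, 95% interval for the fold 0.708 to 1.03). Scaled by raw library totals, the Il10ra value was -0.02.

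Il10rb, the chain that interleukin 10 shares with interleukin 22 and the lambda interferons, stood at 160, 164 and 175 CPM after APAP and 238 CPM in the control. The 3 APAP libraries were tightly grouped below the control, and the mean of 166 ± 8.1 CPM (SD, n = 3) left the control 1.43 times higher. The log2 fold change was -0.52 (SE 0.09, edgeR adjusted p = 0.00839; 0.0557 without the second APAP library) and -0.32 with raw library totals. The ratio of Il10ra to Il10rb reads, again free of scaling, was 1.81, 1.99 and 1.87 after APAP and 1.55 in the control. An annotated readthrough gene shares 569 exon bases with Il10rb, and its reads were not counted separately in the table.

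**Figure D3:**
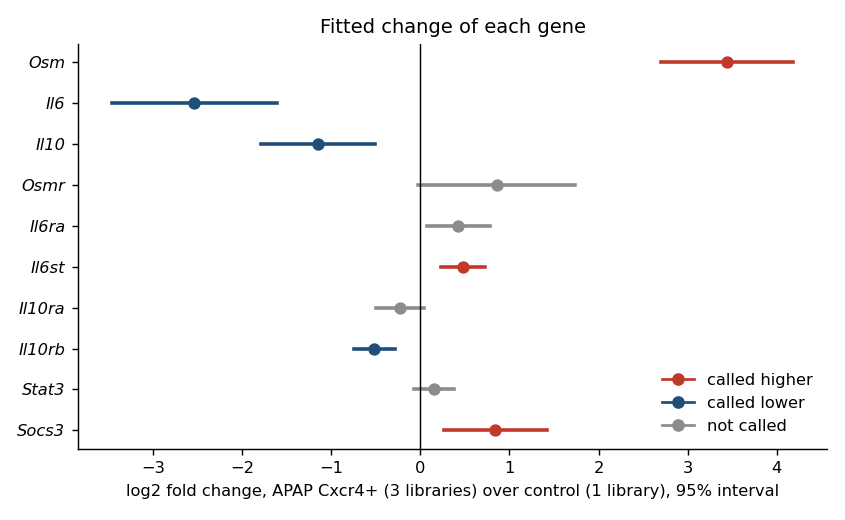
Fitted log2 fold change of the 10 genes (3 APAP Cxcr4+ libraries over 1 control library, edgeR), with the 95% interval as a bar; the colour gives the call at an adjusted p of 0.05. The 3 ligands lie furthest from 0, from 3.45 for Osm to -2.54 for Il6, and the receptors other than Osmr lie within 0.52 of it.

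Stat3, the transcription factor on which these receptors converge, stood at 188, 188 and 177 CPM after APAP and 166 CPM in the control. It had the smallest spread of the 10 genes among the APAP libraries, with a coefficient of variation of 3.57%. Its log2 fold change of 0.15 (SE 0.09) did not pass the test (edgeR adjusted p = 0.220), and the 95% interval for the fold ran from 0.949 to 1.30. With raw library totals in place of TMM factors the value was 0.36 and passed (adjusted p = 0.0268). Stat3 shares 72 exon bases with Stat5a on the opposite strand, a small part of its 9.53 kb.

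Socs3, the gene through which STAT3 ends gp130 signalling, had 865, 732 and 709 reads after APAP and 359 in the control. Socs3 levels of 17.2, 13.6 and 12.1 CPM were all above the control value of 7.99 CPM (Poisson interval 7.18 to 8.86 CPM). The mean of 14.3 ± 2.6 CPM (SD, n = 3) was 1.79 times the control, with a log2 fold change of 0.84 (SE 0.23, edgeR adjusted p = 0.0325). The call was lost with limma-voom (adjusted p = 0.0540) and without the second APAP library (0.0781), at log2 fold changes of 0.82 and 0.87. Relative to Stat3, the ratio of Socs3 reads was 0.0913, 0.0726 and 0.0685 after APAP and 0.0482 in the control, with counting intervals that did not overlap the control's.

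For all 10 genes the control value was outside the span of the 3 APAP values, which also held for 84.8% of all genes tested, so this is no feature of the 10. All 3 APAP values were above the control for 6 of the 10 genes (45.7% of all genes tested) and below it for 4 (39.2%). Among the APAP libraries, the first held the highest value of Osm, Stat3 and Socs3 and the lowest of the other 7 genes, and the third held the reverse extremes for all 10.

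The libraries also differed in markers of other cell types. Of 10 tested neutrophil genes 6 rose and 0 fell (2 and 0 with limma-voom). Their sum over 11 genes was 396, 307 and 215 CPM after APAP and 157 CPM in the control. Without Csf3r, the highest of them in the control, it was 164.5, 108 and 61.6 CPM against 45.8 CPM. Mmp8 stood at 42.7, 22.1 and 15.8 CPM against 0.134 CPM, while Mmp9, at 51.4, 38.1 and 24.6 CPM against 40.2 CPM, did not pass. Ly6g, the defining surface marker, had 7, 2 and 2 reads after APAP and 0 in the control. Ngp, Camp and Ltf also had 0 reads in the control. Of the monocyte genes 6 of 7 rose and 1 fell, all 7 Kupffer cell genes fell, all 6 conventional dendritic cell genes rose (sum 62.6 to 88.4 against 18.9 CPM) and 9 of 10 B cell genes rose (sum 240 to 363 against 116 CPM; 158 to 257 against 35.7 CPM without Cd22, the highest of them in the control). T cell genes rose in 8 of 11 cases (sum 128 to 174 against 75.8 CPM) and NK cell genes in 5 of 8 (31.8 to 46.6 against 14.0 CPM; 3 rose with limma-voom and 2 without the second APAP library), and 0 of either fell. Of the plasmacytoid dendritic cell genes 4 of 6 rose and 1 fell (sum 289 to 312 against 382 CPM), with Siglech at 0 reads in the control. The gene that fell was Bst2, which other cells also express, at 288 CPM in the control and 109 to 129 CPM after APAP, and the other 5 summed to 93.2 CPM in the control and 160 to 186 CPM after APAP.
Neutrophils, monocytes, dendritic cells and B cells are known sources of oncostatin M, interleukin 6 or interleukin 10. The part of these cells in the values of the ligands was not tested. Of the mast cell and basophil genes Cpa3, Mcpt8, Ms4a2 and Fcer1a were at 0 reads in the control and at 0 to 12 reads after APAP, and the list's sum was 8.50 to 9.66 CPM against 4.90 CPM. Sinusoidal endothelial genes, from cells that carry Il6st and Osmr, summed to 967 to 1385 CPM after APAP and 1978 CPM in the control (2 rose and 4 fell of 10), and stellate cell and fibroblast genes to 51.5 to 64.9 CPM against 58.3 CPM (3 rose and 4 fell of 10). Their part in the receptor values was not tested either.

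Of 9 other ligand genes of the gp130 family, 4 had enough reads to be tested, of which 1 rose (Clcf1) and 3 fell (Il27, Ebi3 and Ctf1). Clcf1, a cytokine that acts on the ciliary neurotrophic factor receptor, rose from 2.43 CPM in the control to 8.90, 13.5 and 9.97 CPM (log2 fold change 2.15, SE 0.31, edgeR adjusted p = 0.00408).
Il27 and Ebi3, which encode the subunits of interleukin 27, both fell. Il27 went from 8.55 CPM to 3.09, 3.15 and 3.29 CPM (log2 fold change -1.43, SE 0.18), and Ebi3 from 58.2 CPM to 24.2, 30.1 and 31.2 CPM (-1.03, SE 0.15). The transcripts of both subunits were thus lower in every APAP library. The low-count Ctf1, which encodes cardiotrophin, had 32 reads in the control and 14, 8 and 11 after APAP (edgeR adjusted p = 0.0464), a call lost with the DESeq2 Wald test (0.149), with raw library totals (0.0666) and when the second (0.106) or the third (0.0762) APAP library was left out. Lif, the leukaemia inhibitory factor gene, had 0 reads in the control and 8, 8 and 6 after APAP, at least 2.05 times a floor of 3 reads in the control library. Il11, Cntf and Il31 had at most 3 reads in any library and 0 in the control.

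Counted over the ligand genes Osm, Il6, Clcf1, Il27, Lif, Ctf1, Il11 and Cntf, Osm and Clcf1 held 4.12% and 12.5% of the reads in the control. After APAP Osm held 43.9%, 31.3% and 33.6% and Clcf1 37.8%, 50.4% and 43.9%. Il27 and Il6 held 44.0% and 35.7% in the control and at most 14.5% and 6.32% after APAP. The 2 genes with the most reads were therefore Il27 and Il6 in the control and Osm and Clcf1 in each of the APAP libraries.

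The other gp130-family receptors were mixed, with 1 of 5 higher and 1 lower. Il27ra rose from 2.11 CPM to 8.86, 10.8 and 7.75 CPM (log2 fold change 2.11, SE 0.27, edgeR adjusted p = 0.00293) while both subunits of its ligand fell. Il11ra1, the interleukin 11 receptor chain, fell from 41.1 CPM to 24.8, 22.8 and 21.2 CPM (log2 fold change -0.85, SE 0.12). Lifr, whose product pairs with gp130 for leukaemia inhibitory factor, stood at 32.2, 31.6 and 48.9 CPM against 29.7 CPM and did not pass (adjusted p = 0.340). Lifr was 22.5 to 27.8 times higher per kb than Osmr after APAP and 36.6 times in the control. Of the other interleukin 10 family genes, 3 of 7 found were tested and 0 passed (0 higher, 0 lower; Ifnlr1 log2 fold change 0.95, Il22ra2 -2.03, Il20rb -0.04; 1 of the 3, Il22ra2, had an unadjusted p under 0.05 and was called by limma-voom and without the first APAP library). Il19, Il24 and Il22ra1 had 0 reads in the control and at most 2 after APAP.

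Downstream of the receptors, 8 of the 10 JAK kinase and other STAT genes rose. The median log2 fold change of this list was 0.48, against 0.08 over all genes tested. Without the second APAP library 3 rose. The kinase genes rose by small amounts, Jak2 from 46.1 to 65.9, 72.4 and 71.4 CPM (log2 fold change 0.60, SE 0.10) and Tyk2 from 101 to 157, 160 and 148 CPM (0.61, SE 0.10). Stat5a, which transmits signals of the colony-stimulating factors, rose from 12.8 to 30.7, 28.5 and 26.4 CPM (1.16, SE 0.14). These 3 had edgeR adjusted p between 0.00247 and 0.00666.

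Inhibitors other than Socs3 split, with 6 of 16 higher, 2 lower and 8 that did not pass. Cish, a STAT5 target that dampens cytokine receptors, rose from 0.601 to 3.62, 3.57 and 2.39 CPM (log2 fold change 2.41, SE 0.40, edgeR adjusted p = 0.00628). Socs6 rose from 21.3 to 49.4, 45.8 and 48.1 CPM (1.16, SE 0.11) and Socs4 by 0.62 (SE 0.10). Without the second APAP library 3 rose and 0 fell. The number that fell was 1 with DESeq2 size factors, the DESeq2 Wald test or no count filter, and 0 with raw library totals or without the third APAP library.
Among 8 sheddase and adaptor genes, 4 rose and 2 fell, and 2 rose and 0 fell without the second APAP library. Adam10, a protease that can release the interleukin 6 receptor from the cell surface, had a log2 fold change of 0.47 (SE 0.10, edgeR adjusted p = 0.0128), and the adaptors Sos1 and Gab1 rose by 0.93 (SE 0.10) and 0.69 (SE 0.13). Grb2, an adaptor between receptors and SOS1, fell by 0.43 (SE 0.09, adjusted p = 0.0152). Picked after its value was seen, Adam17 did not pass (log2 fold change 0.21, SE 0.09, edgeR adjusted p = 0.101). Rhbdf2, picked in the same way, was the other gene that fell (-0.32, SE 0.09, adjusted p = 0.0345). The calls of Adam10 and Grb2 were lost without the second APAP library (adjusted p = 0.0767 and 0.0921), and that of Grb2 with raw library totals (0.103). With raw library totals 0 of these genes fell, and with no filter, the DESeq2 Wald test or without the third APAP library 1 fell.

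**Figure D4:**
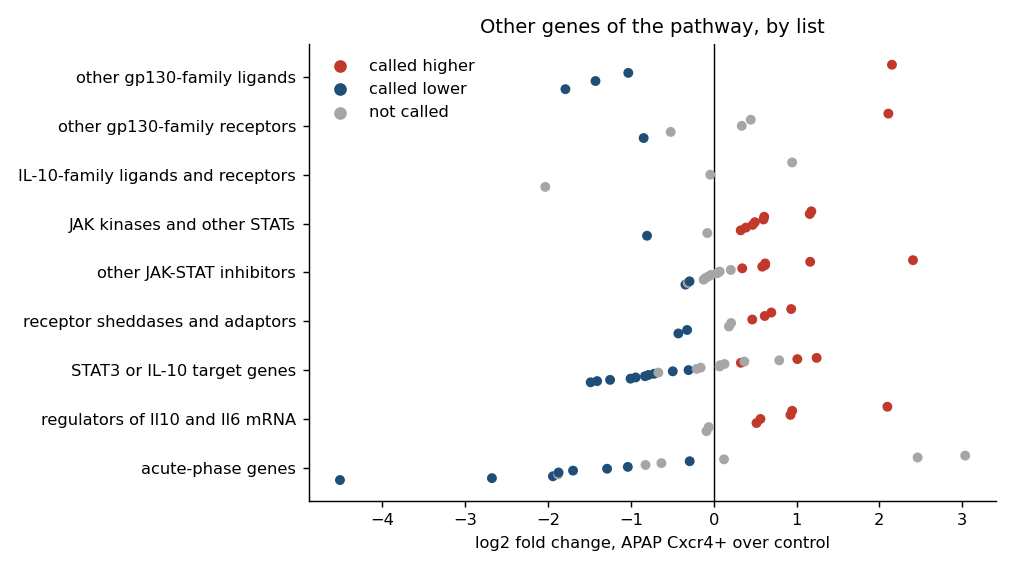
Log2 fold change (APAP Cxcr4+ over control, edgeR) of each tested gene with reads in the control, by list; red points were called higher, blue lower and grey not called. Points of the JAK and STAT list lie mostly right of 0 (8 of 10 called higher), and those of the acute-phase list mostly left of it (8 of 14 called lower).

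Genes known to be switched on by STAT3 or interleukin 10 did not move as one. Of 22 genes, 4 rose, 10 fell and 8 did not pass, with a median log2 fold change of -0.26 against 0.08 over all genes. Etv3, a transcriptional repressor induced by interleukin 10, rose from 38.3 to 78.6, 75.6 and 76.9 CPM (log2 fold change 1.01, SE 0.09). Il21r, the interleukin 21 receptor, rose by 1.24 (SE 0.13), and Timp1, a protease inhibitor, had 0 reads in the control and 22, 12 and 15 after APAP, at least 4.58 times the floor. The remaining one, Sbno2, a corepressor induced by interleukin 10 and picked after its value was seen, rose by 0.33 (SE 0.09, adjusted p = 0.0358; 0.136 without the second APAP library).
The genes of the C/EBP transcription factors, Cebpb and Cebpd, which act with STAT3 in the acute-phase response, both fell. Cebpb went from 633 CPM in the control to 230, 253 and 233 CPM (-1.41, SE 0.10, edgeR adjusted p = 0.00100) and Cebpd from 85.1 to 32.6, 36.1 and 38.6 CPM (-1.25, SE 0.11, adjusted p = 0.00138). Picked after their values were seen, Bcl3 (-0.79) and Il1rn (-0.83), which are reported targets of interleukin 10 in macrophages, were also among the 10 that fell. Socs3 thus rose while the larger number of listed STAT3 or interleukin 10 targets that passed had fallen.

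Of 7 genes that act on Il10 transcription or on the decay of Il6 and related messages, 5 rose and 0 fell (median log2 fold change 0.56; edgeR gave 0 lower at an unadjusted p under 0.05 too, as did DESeq2 and limma-voom after adjustment). Prdm1, a transcription factor known to promote Il10 in lymphocytes, rose from 12.3 to 51.8, 54.8 and 51.2 CPM (2.10, SE 0.11, edgeR adjusted p = 0.000841). Bhlhe40, a repressor of Il10, rose from 37.8 to 78.0, 75.1 and 65.3 CPM (0.95, SE 0.13, adjusted p = 0.00374). The genes of the RNA-binding proteins roquin 1 and 2, Rc3h1 and Rc3h2, rose by 0.93 (SE 0.11) and 0.56 (SE 0.10). Picked after its value was seen, Zfp36, the gene of tristetraprolin, rose by 0.52 (SE 0.11, adjusted p = 0.0149; 0.0796 without the second APAP library). Maf, an activator of Il10 in macrophages that was picked in the same way, stood at 700, 853 and 892 CPM against 866 CPM and did not pass (adjusted p = 0.670). The remaining gene of the list, Zc3h12a, did not pass either. It stood at 20.8, 23.2 and 20.1 CPM against 22.3 CPM (log2 fold change -0.06, SE 0.13, edgeR adjusted p = 0.729). Whether any of these genes bears on the levels of Il6 or Il10 was not tested.

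Acute-phase genes, the classic hepatocyte targets of interleukin 6, were lower in 8 of 14 cases and higher in 0 (5 of 7 lower among genes with at least 5 CPM in a library, and 2 higher with the DESeq2 Wald test; in edgeR 1 was higher at an unadjusted p under 0.05). Those with the smallest p-values were the fibrinogen chain Fgg (log2 fold change -2.68, SE 0.40), hemopexin (Hpx, -1.94, SE 0.24), Itih4 (-1.29, SE 0.22) and ceruloplasmin (Cp, -1.04, SE 0.15), with edgeR adjusted p between 0.00260 and 0.00704. Picked after their values were seen, Lcn2 and Saa3 went the other way but did not pass. Lcn2 stood at 2.53, 1.12 and 0.819 CPM against 0.267 CPM (log2 fold change 2.46, edgeR adjusted p = 0.0597). Saa3 stood at 3.10, 0.186 and 1.16 CPM against 0.178 CPM (3.035, adjusted p = 0.180). Levels in these sorted cells were low, at 75.2 to 93.7 CPM for the sum of the list after APAP and 182 CPM in the control. Of 11 hepatocyte marker genes 8 fell and 0 rose (5 fell without the second APAP library), with sums of 1458, 1788 and 2356 CPM against 3612 CPM. Without Trf, the highest of them in the control, the sums were 348.5, 271.7 and 478.4 CPM against 932.3 CPM. The part of hepatocyte transcripts in the acute-phase values was not tested.

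To place the pattern of the genes across libraries, the 3 log2 ratios to the control were compared with those of 10336 genes with a mean of at least 5 CPM. With 3 values per gene and many genes searched, close neighbours exist for any pattern, and the result is a description only. Nearest to Osm were Ugt1a7c, which shares exons with other genes of its cluster so that its count is uncertain, B3gnt8 and Trerf1, at root-mean-square distances of 0.075, 0.087 and 0.12 on the log2 scale. Ccl24, the complement gene C1qa and Tmem176b came nearest to Il6 (0.069, 0.077 and 0.10). For Il10 the nearest were the transcobalamin gene Tcn2, Ptk2 and Pecam1 (0.042, 0.051 and 0.052), and for Socs3 they were Cenpa, Gpr137b and Mgst1 (0.019, 0.045 and 0.045).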

How the data were processed

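The authors deposited whole-number read counts per Ensembl gene, not normalized. The submitters' processing notes name HISAT2, Subread and the mouse build mm39; the sources used here give no versions, annotation, strand setting or handling of shared reads. Of 29247 gene identifiers, 28926 (98.9%) matched a symbol. The APAP columns carry no replicate number and are numbered 1 to 3 in table order. The test was that of edgeR 4.0.16, run in R 4.3.3 (filterByExpr, minimum count 10 and total 15, which kept 18715 genes; TMM; quasi-likelihood F test; Benjamini-Hochberg adjustment over all genes, called at 0.05), and checked on simulated counts. In the simulation, 57.1%, 70.3% and 93.3% of genes set to change 2, 4 and 8 times were called in the right direction. Of unchanged genes, 0.0394% were called. Control and APAP counts were drawn with the same spread, so the simulation cannot show whether that spread holds for the real control. The standard error is the coefficient divided by the square root of F. With 1 control library the spread rests on the APAP libraries (2 residual degrees of freedom) and is taken to hold for the control too; an exact permutation test of 3 against 1 cannot go below a one-sided p of 0.25. Each choice was also changed in turn: other scalings (DESeq2 1.42.0 size factors, upper quartile, raw totals), other count filters (none, or 5 CPM in any library), other tools (the DESeq2 Wald test, limma-voom from limma 3.58.1) and each APAP library left out. Folds against a control at 0 reads use a floor of 3 counts in that library. Exon lengths and overlaps come from GENCODE M21, an annotation of another build (GRCm38). The genes described, the lists and the rule for named genes (up to 4 per list with the smallest p, genes at 0 in the control and, as neighbours, the 3 nearest genes on log2 of CPM plus 0.5) were chosen with earlier results of these data known. Some listed genes are not reported here.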

Additional observations from a re-analysis of the deposited data

How the results depend on the processing

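Osm and Il6 kept their direction and their call in all 10 alternatives, with log2 fold changes from 3.31 to 3.65 and from -2.68 to -2.28. Leaving out the second APAP library lowered the number of calls over all genes (5001; 8283 to 9380 without another), and over the 10 genes to 1 higher and 1 lower (3 or 4 higher and 3 lower without another). The lists of other pathway genes then held 18 higher, against 29 with all libraries; leaving out the others gave up to 31. The calls of Il10 (-1.16; -1.29 to -1.01 over the 3 libraries left out in turn), Il6st (0.49; 0.45 to 0.51), Il10rb (-0.51; -0.54 to -0.49) and Socs3 (0.87; 0.69 to 0.96) were then lost. Il6ra passed without the first APAP library (0.50; 0.36 to 0.50), with the DESeq2 Wald test (0.44) and with no count filter (0.46), and Socs3 (0.82) was lost with limma-voom. Raw library totals, added after seeing the data, moved the median log2 fold change of all genes from 0.08 to 0.29 and the share of calls that were higher from 57.4% to 72.2%. With them 5 of the 10 genes rose, Il6ra (0.63) and Stat3 (0.36) among them, and Maf (0.12), Stat6 (0.13) and Il20rb (0.16) changed sign, as did Maf (0.00947; lowest -0.14, without the third) and Il20rb (0.16) without the first, and Il20rb (0.06; lowest -0.39, without the second) without the third APAP library. The cause of these changes was not tested. Osmr was left out by the filter of 5 CPM in at least 1 library. No paired analysis was possible because there is only 1 control library for the 3 APAP libraries. Depth limits genes with few reads in the control, such as Osmr, Osm and Ctf1 with 41, 36 and 32. The control also had reads on fewer genes than any APAP library, at a similar total count. The part of that in such low counts was not tested, and counting intervals do not cover it.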
